A study of Mus musculus with 12 samples.

Results

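The laminin chain genes are described here across wild-type and N-VEGF-deleted mouse fibroblasts in normoxia and hypoxia. The members are the 9 genes Lama1, Lama2, Lama3, Lama4, Lama5, Lamb1, Lamb2, Lamb3 and Lamc1, chosen by name from a table of 54446 genes, and all 9 were found. The other gamma chain genes were not analysed here. NIH3T3 is an established line of mouse embryonic fibroblasts. RNA was sequenced from wild-type (WT) cells and from dN-VEGF cells, in which both copies of Vegfa lack the stretch coding for N-VEGF, an amino-terminal extension of VEGF-A that is translated from an upstream start. The deletion was made with CRISPR/Cas9, and its selection and fluorescence cassettes were afterwards removed with a recombinase. Each line was grown in normoxia, or for 16 h in hypoxia below 0.2% oxygen, which gave 4 groups of 3 samples and 12 samples in all. The sources used here do not say which clone of dN-VEGF cells gave the RNA, or whether the 3 samples of a group came from separate cultures, so p-values measure only the spread between these samples, which may be technical. A single clone cannot be told apart from the deletion it carries.

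Laminins are large cross-shaped glycoproteins of the basement membrane, each assembled inside the cell from an alpha, a beta and a gamma chain. The beta and gamma chains join first, and the alpha chain is needed for the trimer to be secreted. The alpha chain carries the globular domains that bind integrins and dystroglycan on the cell surface, while the short arms of the chains join the trimers into a network that nidogen links to type IV collagen. Fibroblasts are known mainly for the alpha 2, alpha 4, beta 1, beta 2 and gamma 1 chains, and epithelia for alpha 3, alpha 5 and beta 3.

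Samples held 30519052 to 43056690 counts on genes. Levels are given as counts per 1000000 counts of the sample (CPM) after TMM scaling, and as CPM per kb of exon where genes are compared with each other. Of all genes, 14724 passed the filter on low counts and were tested, among them 6 of the 9 members. Genes were called at an adjusted p below 0.05 in edgeR's quasi-likelihood test. Replicate 2 of WT normoxia stood apart from its group, with a mean correlation to its group of 0.956 against 0.976 for replicates 1 and 3, and replicate 2 of dN-VEGF normoxia stood apart to a smaller degree (0.986 against 0.991). Where leaving out one of these samples made or ended the call of a member, the value without it is given beside the result. All 8 hypoxia control genes rose in both lines. Vegfa was measured at 86.2, 39.4 and 82.6 CPM in the 3 WT normoxia samples and at 34.2 to 37.3 CPM in dN-VEGF normoxia, against 272 to 291 and 419 to 437 CPM in hypoxia. Counts over the whole gene do not check the deleted stretch. Of 8 fibroblast markers, 7 were above 1 CPM in each group, and the remaining marker, Fap, was at 0.0474 CPM or less in every sample.

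The beta and gamma chain genes Lamb1, Lamb2 and Lamc1 were expressed far above the alpha chain genes. The beta chain gene Lamb3 was scarce, at 0.0302 CPM per kb in WT normoxia. In WT normoxia Lamb1 stood at 59.4 ± 6.56 CPM per kb (SD, n = 3), Lamc1 at 46.8 ± 7.71 and Lamb2 at 17.3 ± 5.65. The ranges of Lamb1 and Lamc1 overlapped in that group, while Lamb2 lay below both. The most abundant alpha chain genes there were Lama5 with 0.582 ± 0.424 CPM per kb and Lama4 with 0.489 ± 0.323, which did not differ beyond their spread. Lama3 followed with 0.0337 ± 0.00451. Without replicate 2 the means of Lama5 and Lama4 were 0.827 and 0.676 CPM per kb, and Lama5 lay above Lama4 in both remaining samples. The summed alpha chain level per kb was 2.94%, 0.662% and 3.09% of that of Lamc1 in the WT normoxia samples, 1.90% ± 0.246 (SD, n = 3) in WT hypoxia, 1.58%, 1.08% and 1.49% in the dN-VEGF normoxia samples and 4.32% ± 0.00910 in dN-VEGF hypoxia. Replicates 1 and 3 of WT normoxia lay above the WT hypoxia samples, the highest of which was at 2.17%, and replicate 2 lay below all of them. Hence the alpha genes together reached no more than a few percent of the gamma 1 gene in any group. In dN-VEGF hypoxia this share was higher than in dN-VEGF normoxia and than in WT hypoxia, with no overlap between the samples (exact permutation test, two-sided, p = 0.1 each, the smallest value that 3 against 3 samples allow). These ratios of chains within a sample were chosen after the levels had been seen.

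Lama1, Lama2 and Lamb3 did not pass the filter. Lama1, the alpha chain of early embryonic basement membranes, had 0 to 2 counts per sample. Lama2, the alpha chain of muscle and nerve basement membranes, had 0 to 5. Lamb3, the beta chain that pairs with alpha 3 in the anchoring laminin of skin, had 1 to 18. The highest value was 18 counts (0.347 CPM) in replicate 3 of WT normoxia, beside 7 and 4 counts in replicates 1 and 2 and 1 to 3 counts in each dN-VEGF sample. A limit of 3 counts per sample corresponds to 0.0578 to 0.103 CPM, counting error only, so levels below that could not be told from 0. Lamb3 lay above this limit in every WT sample but replicate 2 of WT hypoxia, and in no dN-VEGF sample. As these genes did not pass the filter, no fold change is given for them.

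**Figure D1:**
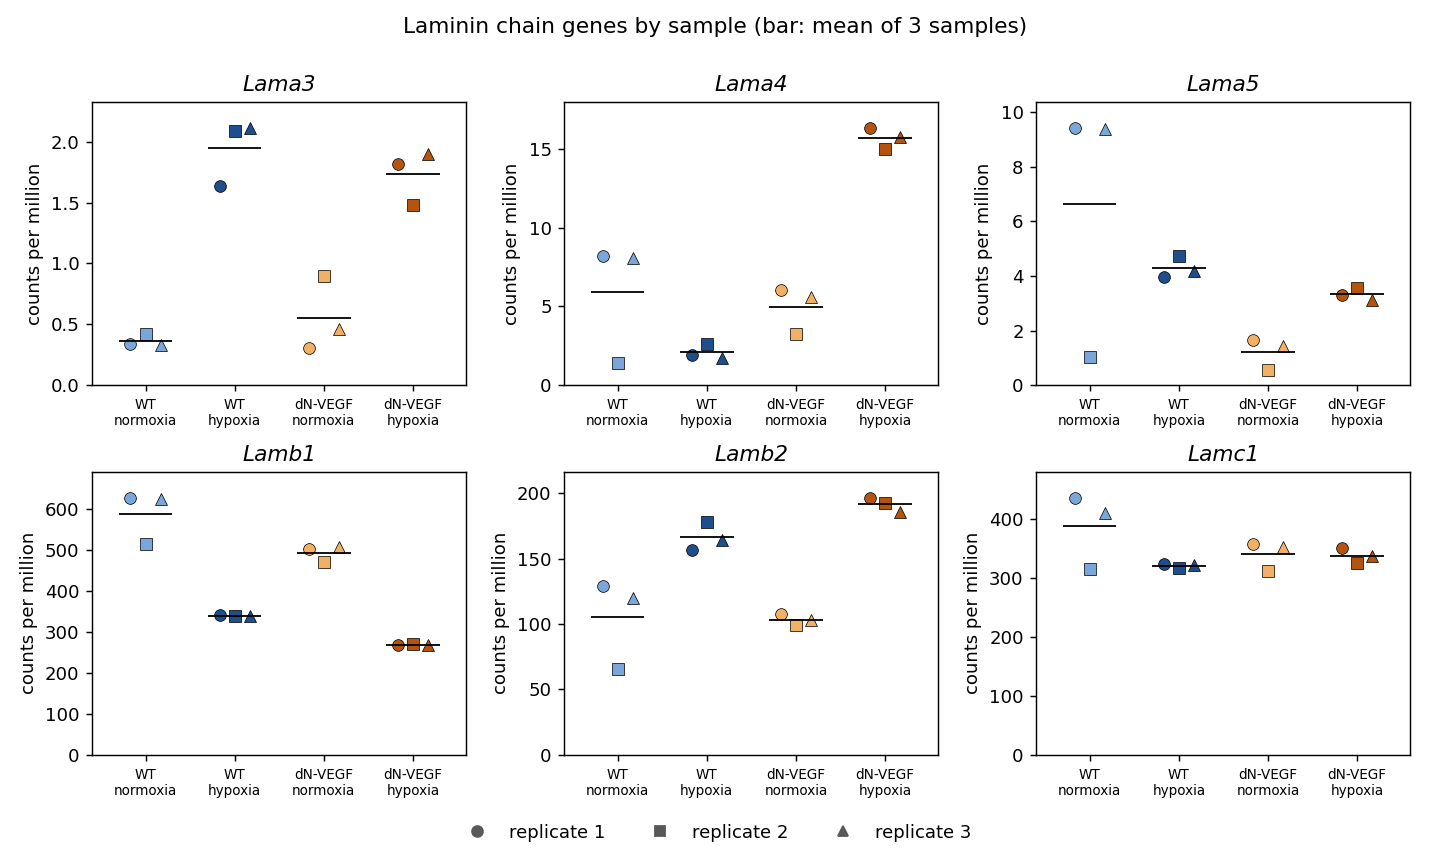
CPM (y axis, from 0, own range for each panel) of the 6 tested laminin chain genes in the 4 groups (x axis), with a point for each sample, shaped by replicate number, and a bar at the mean of 3 samples. Replicate 2 of WT normoxia lies below replicates 1 and 3 for Lama4, Lama5, Lamb1, Lamb2 and Lamc1, while Lama4 lies between 15.0 and 16.4 CPM in dN-VEGF hypoxia, above all other samples.

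The question of the first pair of comparisons was how each line responded to hypoxia. In WT cells, 2 of the 6 tested members rose (Lama3 and Lamb2) and 2 fell (Lama4 and Lamb1), where 18.2% of all tested genes rose and 18.3% fell. In dN-VEGF cells, 3 rose (Lama3, Lama4 and Lamb2) and 1 fell (Lamb1), where 26.9% of all tested genes rose and 26.4% fell. Under total counts alone, which called 45.6% and 59.8% of all genes, 1 member rose and 3 fell in WT cells, and 1 rose and 2 fell in dN-VEGF cells. The median log2 fold change of the 6 members was -0.45 in WT cells against -0.07 over all tested genes, and 1.18 in dN-VEGF cells against -0.01. The second pair compared the lines within a condition. In normoxia 0 of the 6 members were called, where 1.39% of all genes were higher in dN-VEGF cells and 2.97% lower. At an unadjusted p below 0.05, Lama5 and Lamb1 were lower, where 12.8% of all genes were lower and 6.17% higher. DESeq2 called 2 members, where it called 4.51% of all genes. The fit without replicate 2 of WT normoxia called 5 members lower, where it called 48.9% of all genes. In hypoxia 1 member was higher in dN-VEGF cells (Lama4) and 1 lower (Lamb1), where 10.8% of all genes were higher and 9.36% lower. The responses themselves differed for 1 member, Lama4, which was more positive in dN-VEGF cells, where 2.21% of genes differed in that direction and 1.15% in the other. Without replicate 2 of WT normoxia 4 members were more positive, where 44.4% of all genes were called. Counts over 6 genes are too few to be set apart from these shares, so the members are described singly. The comparisons share samples, since each group enters more than 1 of them.

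Lamb1 encodes the beta 1 chain, the beta chain of most embryonic and many adult laminins, and lies at chr12:31265234-31329644 on the plus strand of GRCm38. It stood at 629, 514 and 625 CPM in WT normoxia and at 342, 339 and 339 CPM in WT hypoxia. In dN-VEGF cells it stood at 503, 471 and 507 CPM in normoxia and at 268, 271 and 269 CPM in hypoxia. All hypoxic samples lay below all normoxic samples of both lines, and the hypoxic samples of a group were within a few CPM of each other. Lamb1 fell by 0.79 on the log2 scale in WT cells (SE 0.09, adjusted p = 5.4e-05) and by 0.87 in dN-VEGF cells (SE 0.09, adjusted p = 1.4e-05). The call held in both lines in all 12 fits that left out a sample. The difference between these responses was -0.08 (95% interval -0.36 to 0.20, adjusted p = 0.75), so a difference of up to 0.36 could not be told from none.

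Lamb1 was also lower in dN-VEGF than in WT cells. In hypoxia the difference was -0.34 (SE 0.09, adjusted p = 0.023), and the dN-VEGF samples lay below all WT samples. That call was kept in 6 of 12 fits that left out a sample and lost without any of the 6 hypoxic samples, where the adjusted p was 0.051 to 0.080, while the log2 difference stayed between -0.34 and -0.33. It was also lost with no filter on low counts (-0.34, adjusted p = 0.091). In normoxia the difference was -0.26 (SE 0.09, adjusted p = 0.14), again with every dN-VEGF sample below every WT sample, and it was -0.33 (adjusted p = 0.00065) without replicate 2 of WT normoxia. DESeq2 called it with all samples (-0.25, adjusted p = 0.044).

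Lamb2 encodes the beta 2 chain, known from the basement membranes of the kidney glomerulus, the neuromuscular junction and vessel walls, and lies at chr9:108479736-108490530 on the plus strand. Its levels were 129, 65.8 and 120 CPM in WT normoxia and 156, 178 and 165 CPM in WT hypoxia. In dN-VEGF cells they were 108, 99.3 and 103 CPM in normoxia and 197, 193 and 186 CPM in hypoxia. Every hypoxic sample lay above every normoxic sample, opposite to Lamb1. Lamb2 rose by 0.66 on the log2 scale in WT cells (SE 0.20, adjusted p = 0.021) and by 0.89 in dN-VEGF cells (SE 0.20, adjusted p = 0.0029). The rise in WT cells was 0.42 (adjusted p = 0.00044) without replicate 2 of WT normoxia, and it was 0.62 and not called (adjusted p = 0.066) without replicate 2 of WT hypoxia. In the fit of only the 6 WT samples it was 0.63 and not called (adjusted p = 0.14). Scaling by total counts alone, which moved the median of all genes to -0.30 in WT cells and -0.41 in dN-VEGF cells, left rises of 0.41 and 0.49 that were no longer called (adjusted p = 0.18 and 0.096). The lines did not differ detectably in Lamb2 in normoxia (-0.024, 95% interval -0.45 to 0.41) or in hypoxia (0.20, 95% interval -0.22 to 0.63), and total counts alone turned the latter to -0.015. In the fit without replicate 2 of WT normoxia these differences were -0.26 (adjusted p = 0.012) and 0.20 (adjusted p = 0.027), and that between the responses, 0.23 with all samples (adjusted p = 0.67), was 0.46 (adjusted p = 0.0025).

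The opposite movement of the beta genes shifted the ratio between them, which within a sample does not depend on how libraries are scaled. The ratio of Lamb1 to Lamb2 per kb was 2.98, 4.79 and 3.19 in WT normoxia and 1.34, 1.17 and 1.26 in WT hypoxia. It was 2.85, 2.91 and 3.02 in dN-VEGF normoxia and 0.835, 0.862 and 0.888 in dN-VEGF hypoxia. Per kb of exon, Lamb1 was above Lamb2 in every sample but the 3 of dN-VEGF hypoxia. That order rests on dividing by exon lengths of 9917 and 6082 bp, since in CPM Lamb1 was above Lamb2 there too (268 to 271 against 186 to 197 CPM). The direction in which the ratio moved does not depend on the lengths. As a share of the 3 beta genes, Lamb2 went from 22.1% ± 4.22 to 44.3% ± 1.72 in WT cells and from 25.5% ± 0.554 to 53.7% ± 0.755 in dN-VEGF cells. The groups did not overlap in either line, nor between the lines in hypoxia (exact permutation test, two-sided, p = 0.1 each, adjusted p = 0.213 over 32 tests of shares). With 3 against 3 samples the test cannot go below 0.1.

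**Figure D2:**
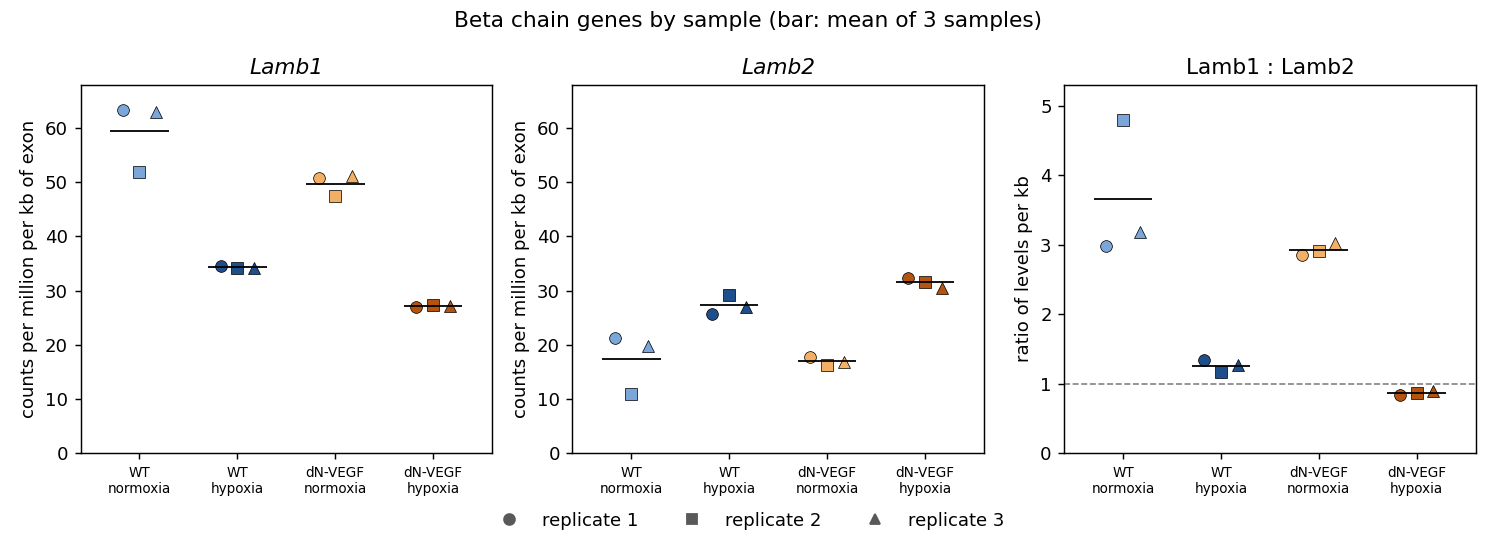
Lamb1 and Lamb2 in CPM per kb of exon (y axis, the same range in both panels) and the ratio of Lamb1 to Lamb2 in each sample (right panel, dashed line at 1), with a bar at the mean of 3 samples. Lamb1 is lower and Lamb2 higher in all hypoxic samples, and the ratio lies between 0.835 and 0.888 in dN-VEGF hypoxia against 2.85 to 3.02 in dN-VEGF normoxia.

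The sequences upstream of these oppositely moving beta genes are shown so that their letters can be compared. RefSeq promoter windows (GRCm38.p6, 300 bases each) were at hand for Lama2, Lama5, Lamb1, Lamb2 and Lamb3. The 3 short motifs searched on both strands were ACGTG and GCGTG, the core letters bound by hypoxia-inducible factors, and GGGCGG, the GC box bound by SP1. Of 32851 promoter windows of that length, 19.6% hold ACGTG, 32.4% hold GCGTG, 43.8% hold either, and 35.7% hold GGGCGG. Each sequence reads 5′ to 3′ on the gene's strand, ends before the first annotated exon, and has the motif letters in capitals. The stretch of Lamb1 is chr12:31265043-31265233 and that of Lamb2 chr9:108479612-108479735.
Lamb1: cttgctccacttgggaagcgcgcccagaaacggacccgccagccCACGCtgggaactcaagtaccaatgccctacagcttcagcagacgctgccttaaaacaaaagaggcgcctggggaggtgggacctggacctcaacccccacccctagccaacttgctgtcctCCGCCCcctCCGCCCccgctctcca
Lamb2: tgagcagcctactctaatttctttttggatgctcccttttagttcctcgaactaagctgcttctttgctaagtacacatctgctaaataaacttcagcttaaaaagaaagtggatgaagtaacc
The window of Lamb1 held GCGTG once and GGGCGG at 2 places, all on the opposite strand and all within the stretch printed. The window of Lamb2 held none of the 3 motifs. The window of Lama2 held GGGCGG once and neither of the others. The window of Lama5 held GGGCGG 4 times and neither of the others, and the first of 2 windows of Lamb3 held GCGTG once. A match is a description of these letters only.

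Lamc1 encodes the gamma 1 chain, the partner shared by most laminins, and lies at chr1:153218922-153332786 on the minus strand. It was called in none of the comparisons. Its levels were 436, 315 and 410 CPM in WT normoxia, 324, 316 and 322 CPM in WT hypoxia, 357, 312 and 352 CPM in dN-VEGF normoxia, and 350, 325 and 337 CPM in dN-VEGF hypoxia. The 4 groups overlapped in part, with the lowest normoxic value of each line in its replicate 2. Hypoxia changed Lamc1 by -0.27 in WT cells (SE 0.12, adjusted p = 0.090) and by -0.012 in dN-VEGF cells (95% interval -0.27 to 0.24, adjusted p = 0.94). The value in WT cells was -0.39 (adjusted p = 0.00051) without replicate 2 of WT normoxia, when Lamc1 was also lower in dN-VEGF than in WT normoxia (-0.30, adjusted p = 0.0042) and its response differed by 0.37 (adjusted p = 0.0079). With all samples the lines differed by -0.18 in normoxia (adjusted p = 0.43) and by 0.073 in hypoxia (adjusted p = 0.71). Under total counts alone Lamc1 was called lower in both lines (-0.51, adjusted p = 0.020, and -0.42, adjusted p = 0.038). The summed beta level per kb was 1.64 ± 0.0331 times that of Lamc1 in WT normoxia, 1.59 ± 0.0607 in WT hypoxia, 1.63 ± 0.0570 in dN-VEGF normoxia and 1.44 ± 0.0523 in dN-VEGF hypoxia. In dN-VEGF hypoxia it lay below all samples of dN-VEGF normoxia and of WT hypoxia (exact permutation test, two-sided, p = 0.1 each), whereas the WT groups overlapped (p = 0.3).

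Lama4 encodes the alpha 4 chain, a truncated alpha chain found in blood vessels, muscle, fat and other mesenchymal tissue, and lies at chr10:38965515-39110188 on the plus strand. It was the member in which the lines differed most in hypoxia. Its levels were 8.19, 1.39 and 8.11 CPM in WT normoxia and 1.95, 2.60 and 1.73 CPM in WT hypoxia. In dN-VEGF cells they were 6.07, 3.22 and 5.59 CPM in normoxia and 16.4, 15.0 and 15.8 CPM in hypoxia. The dN-VEGF hypoxia samples lay above all other samples, whereas in WT cells replicate 2 of normoxia lay below all 3 hypoxic samples.

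In hypoxia Lama4 was higher in dN-VEGF than in WT cells by 2.91 on the log2 scale (SE 0.53, a 7.53-fold difference, adjusted p = 0.0039), and it kept this call in 12 of 12 fits that left out a sample and under 7 of 7 other settings. Hypoxia raised it by 1.66 in dN-VEGF cells (SE 0.50, adjusted p = 0.015), a call ended by total counts alone (1.25, adjusted p = 0.061) and, among 12 fits without a sample, by leaving out replicate 2 of dN-VEGF normoxia (1.42, adjusted p = 0.059). In WT cells it fell by 1.50 (SE 0.51, adjusted p = 0.040), but the groups overlapped. The call was kept in 2 of 12 fits without a sample, those without replicate 2 of WT normoxia (-1.97, adjusted p = 9.9e-06) or of dN-VEGF normoxia (-1.50, adjusted p = 0.042), and in the other 10 the change was -1.68 to -1.20 with an adjusted p of 0.051 to 0.13. With the replicate number as a block it was -1.33 and not called (adjusted p = 0.069), and likewise in the fit of only the 6 WT samples (-1.53, adjusted p = 0.14). The responses of the lines differed by 3.16 (SE 0.71, adjusted p = 0.039). This interaction was called in 1 of 12 fits without a sample, the fit without replicate 2 of WT normoxia, where it was 3.62 (adjusted p = 1.6e-06). Without replicate 2 of dN-VEGF normoxia it was 2.92 (adjusted p = 0.059). In the 11 fits that lost the call the adjusted p was up to 0.12 and the difference at least 2.86, and with the replicate block it was 3.05 (adjusted p = 0.050, not called). In normoxia the lines did not differ detectably (-0.25, 95% interval -1.33 to 0.82), but without replicate 2 of WT normoxia Lama4 was lower in dN-VEGF cells (-0.70, adjusted p = 0.014).

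Because alpha 4 is a chain of endothelial laminins, the 4 endothelial markers were measured beside it. Their summed level was 20.3 to 25.1 CPM in dN-VEGF hypoxia, 5.91 to 8.05 CPM in WT hypoxia and 1.81 to 4.23 CPM in the normoxic groups. Nearly all of it was Cdh5, the cadherin of endothelial junctions, with 22.2 ± 2.53 CPM in dN-VEGF hypoxia and 6.03 ± 1.09 in WT hypoxia. Pecam1 was at 0.611 CPM or less and Tek at 0.376 CPM or less in every sample, and Emcn was at 0 in all samples of dN-VEGF hypoxia. In bulk RNA, more cells of a type and more RNA per cell cannot be told apart.

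Lama5 encodes the alpha 5 chain, the widespread alpha chain of epithelial and vascular basement membranes, and lies at chr2:180176373-180225859 on the minus strand. It was measured at 9.43, 1.04 and 9.40 CPM in WT normoxia, 3.95, 4.73 and 4.18 CPM in WT hypoxia, 1.66, 0.545 and 1.42 CPM in dN-VEGF normoxia, and 3.32, 3.57 and 3.13 CPM in dN-VEGF hypoxia. Replicate 2 was lowest in both normoxic groups, and in WT normoxia it lay below 2 of the 3 dN-VEGF samples. No comparison of Lama5 was called. In normoxia it was lower in dN-VEGF cells by a log2 difference of -2.45 (SE 0.64, 95% interval -3.87 to -1.03, adjusted p = 0.058). DESeq2 called this difference (-2.44, adjusted p = 0.0019), as did the fit with no filter on low counts (-2.36, adjusted p = 0.016) and the fit without replicate 2 of WT normoxia (-2.94, adjusted p = 5.2e-06). With the replicate number as a block it was -2.35 (adjusted p = 0.073). Hypoxia changed Lama5 by -0.63 in WT cells (adjusted p = 0.44) and by 1.46 in dN-VEGF cells (adjusted p = 0.077), where every hypoxic sample lay above every normoxic sample. DESeq2 called the latter rise (1.47, adjusted p = 0.038), and so did the fit of only the 6 samples compared (1.43, adjusted p = 0.0073). In hypoxia the lines differed by -0.36 (95% interval -1.70 to 0.99, adjusted p = 0.73), with the dN-VEGF samples below the WT samples, and it was called in the fit of the 6 samples compared (-0.36, adjusted p = 0.021) and with both normoxia samples numbered 2 left out (-0.35, adjusted p = 0.013). If replicate 2 of WT normoxia was left out, the responses to hypoxia were -1.13 (adjusted p = 0.0014) and 1.45 (adjusted p = 0.00029), and the difference between the responses, 2.09 with all samples (adjusted p = 0.20), was 2.58 (adjusted p = 0.00010).

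Lama3 encodes the alpha 3 chain of epidermal anchoring laminin, and lies at chr18:12333819-12583013 on the plus strand. It was scarce in all groups and rose in both lines. Its counts were 15, 18 and 17 in WT normoxia, 63, 61 and 83 in WT hypoxia, 14, 38 and 19 in dN-VEGF normoxia, and 58, 46 and 62 in dN-VEGF hypoxia. All hypoxic samples lay above all normoxic samples. The mean level went from 0.363 ± 0.0485 to 1.95 ± 0.270 CPM in WT cells, a log2 rise of 2.42 (SE 0.34, adjusted p = 0.00026), and from 0.556 ± 0.309 to 1.73 ± 0.223 CPM in dN-VEGF cells, a rise of 1.64 (SE 0.33, adjusted p = 0.0016). Both calls were kept in all 12 fits that left out a sample and under all 7 other settings. The responses did not differ detectably (-0.78, 95% interval -1.81 to 0.26). An antisense gene overlaps 197 of its 10745 exonic bases, and whether reads were counted by strand is not given in the sources used here. The 6 epithelial markers summed to 8.71 to 10.4 CPM in WT hypoxia, mostly Krt14, and to 2.27 to 3.90 CPM in the other 3 groups. Of the 3 markers tested, Krt14 alone was called in WT hypoxia, and in dN-VEGF hypoxia Krt14 was called higher and Krt8 lower. Cdh1 stood at 1.42 ± 0.770 CPM in WT normoxia and 0.688 ± 0.181 in WT hypoxia, and Krt8 at 0.368 ± 0.216 and 0.343 ± 0.0591. Epcam was at 0 in every sample. The Lama3 levels of dN-VEGF hypoxia overlapped with those of WT hypoxia, while the epithelial sum was lower. The part of these markers in the result was not tested.

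**Figure D3:**
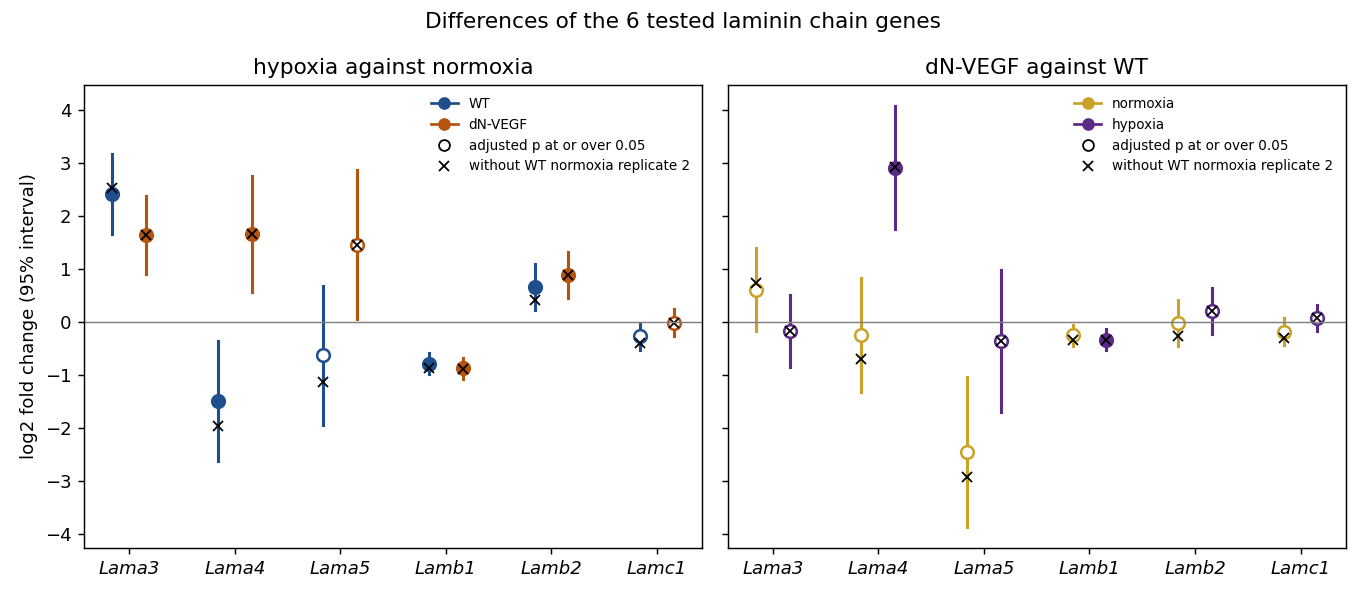
Log2 fold changes (y axis) of the 6 tested laminin chain genes (x axis) with 95% intervals for hypoxia against normoxia in each line (left) and for dN-VEGF against WT cells in each condition (right), where filled points are called at an adjusted p below 0.05 and crosses give the value without replicate 2 of WT normoxia. Lamb1 and Lamb2 lie on opposite sides of 0 in both lines, and Lama4 lies at -1.50 in WT and 1.66 in dN-VEGF cells.

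Within the small pool of alpha chain transcripts, the share of Lama4 was higher and that of Lama5 lower in every dN-VEGF sample than in every WT sample of the same condition. Per kb, Lama4 made up 44.5% ± 1.15 of the 5 alpha genes in WT normoxia and 70.8% ± 4.50 in dN-VEGF normoxia, and Lama5 47.9% ± 9.95 and 17.6% ± 5.12. In hypoxia Lama4 made up 23.5% ± 2.90 in WT cells and 73.8% ± 0.752 in dN-VEGF cells, and Lama5 51.3% ± 1.19 and 16.7% ± 1.52. Lama3 made up 24.7% ± 2.72 in WT hypoxia against 9.14% ± 0.990 in dN-VEGF hypoxia. The samples of the lines did not overlap for any of these shares. Each such difference had an exact permutation p of 0.1, the smallest possible, and an adjusted p of 0.213. The ratio of Lama4 to Lama5 per kb was 0.814 to 1.26 in WT normoxia, 0.391 to 0.520 in WT hypoxia, 3.46 to 5.58 in dN-VEGF normoxia and 3.96 to 4.76 in dN-VEGF hypoxia. It was therefore above that of every WT sample in all 6 dN-VEGF samples, replicate 2 of each normoxic group included. In WT normoxia Lama5 was above Lama4 in replicates 1 and 3 and below it in replicate 2. As this ratio is taken within a sample, it does not change with the scaling of libraries.

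**Figure D4:**
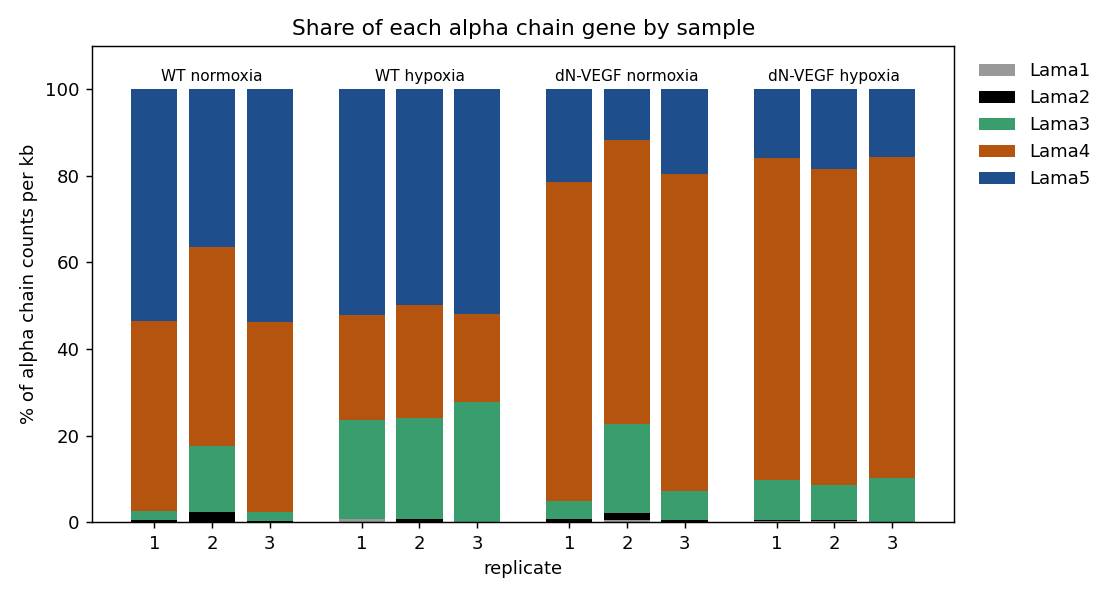
Share of each of the 5 alpha chain genes in their summed counts per kb (y axis, percent) for each sample (x axis, replicates within the 4 groups). Lama4 fills 65.6% to 74.3% of each dN-VEGF bar, and Lama5 is at or above 36.4% in each WT bar and at or below 21.3% in each dN-VEGF bar.

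The members also varied together within groups. The deviations of Lama4, Lama5, Lamb1, Lamb2 and Lamc1 from their group means correlated at 0.91 to 0.99 over the 12 samples. This is a description only, across samples that may share a culture. Replicate 2 of WT normoxia deviated from its group mean by -0.19 on the log2 scale for Lamb1, -0.28 for Lamc1, -0.61 for Lamb2, -1.67 for Lama4 and -2.07 for Lama5, and replicate 2 of dN-VEGF normoxia lay below its own group mean for these 5 genes. With both of these samples left out, the correlations ran from -0.45 to 0.79 over 10 samples, so the shared deviation rests on them. Lama3 did not take part, with correlations of -0.55 to -0.27 with the other members. It lay above its group mean in replicate 2 of WT normoxia (0.19) and of dN-VEGF normoxia (0.77). Without these samples its correlations were -0.36 to 0.14.

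**Figure D5:**
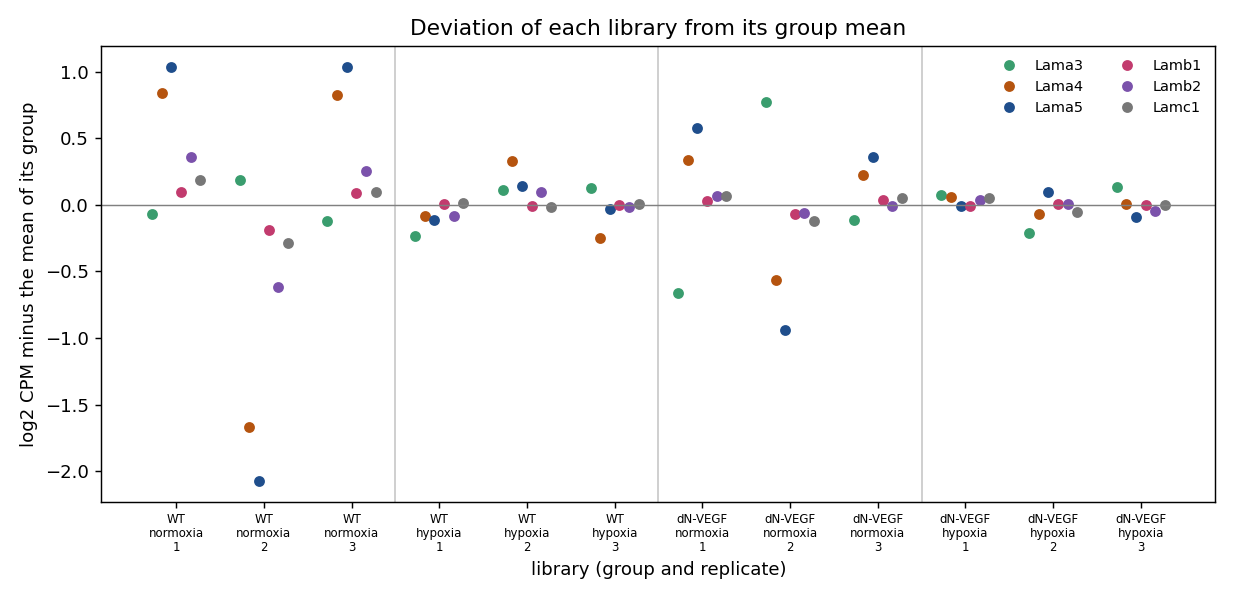
Deviation of each library's log2 CPM from the mean of its group (y axis) for the 6 tested laminin chain genes in the 12 libraries (x axis, named by group and replicate). Replicate 2 of WT normoxia is lowest for Lama5 and Lama4, and the hypoxic libraries lie between -0.25 and 0.33.

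The genes most like each member over the 12 samples were found among 8520 tested genes of at least 10 CPM on average, by Pearson's r of log2 CPM. Lamb1 was most like Lrig3 (r = 0.99) and Hsd17b4 (0.99), and Lamb2 most like Lpin1 (0.99) and Natd1 (0.98). Lamc1 was most like Svil (0.97) and Baz2a (0.96). Among the alpha genes, Lama4 was most like Junb (0.99) and Trim25 (0.97), Lama5 most like Gabbr1 (0.99) and Acbd4 (0.98), and Lama3 most like Smad6 (0.96) and Pdia5 (0.96). With 12 samples in 4 groups, such values largely describe the order of the groups.

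The genes of the pathway around laminin were taken from 4 lists, all chosen with earlier results of these data known. The partners of laminin in the basement membrane moved in both directions. Of 14 tested network genes, 3 rose and 3 fell in WT hypoxia, where 18.2% of all tested genes rose and 18.3% fell. In dN-VEGF hypoxia 6 rose and 2 fell, where 26.9% of all rose and 26.4% fell. Their median log2 fold changes were -0.21 and 0.49. The largest rise in both lines was that of Fbln2, an extracellular fibulin that binds laminin and nidogen, with 0.99 in WT (adjusted p = 0.0051) and 2.11 in dN-VEGF cells (adjusted p = 2.3e-05). The falling genes named by the same rule were netrins, whose short arms resemble those of laminin. Ntn1 fell in WT cells (-3.58, adjusted p = 0.0026), from 366 to 23 counts over the 3 samples. Ntn4 fell in dN-VEGF cells (adjusted p = 0.00043), from 136 to 4 counts, and no fold change is given for it since no hypoxic sample was above the limit of 3 counts. Between the lines, 1 network gene was higher and 0 lower in dN-VEGF normoxia (Sparc, a collagen-binding matrix protein, 0.38, adjusted p = 0.047), and 6 were higher and 1 lower in dN-VEGF hypoxia. Of all tested genes, 1.39% were higher and 2.97% lower in normoxia, and 10.8% and 9.36% in hypoxia. Fbln2 had the largest difference in hypoxia with 1.29 (adjusted p = 0.0031), and Col4a6 was lower by -0.79 (adjusted p = 0.037). The response differed for 2 network genes, of which Col4a1, a main chain of type IV collagen, had the larger difference (1.27, adjusted p = 0.029). Both were more positive in dN-VEGF cells, where 2.21% of all genes were. Col4a1 stood at 829 ± 253 CPM in WT normoxia, 1031 ± 37.3 in WT hypoxia, 830 ± 24.1 in dN-VEGF normoxia and 2492 ± 93.8 in dN-VEGF hypoxia. When replicate 2 of WT normoxia was left out, 9 of the 14 network genes were lower and 2 higher in dN-VEGF normoxia, where 23.2% of all genes were lower and 25.7% higher. In that fit 3 rose and 8 fell in WT hypoxia, where 27.1% of all genes rose and 26.9% fell, and 8 were more positive in the response of dN-VEGF cells, where 21.4% of all genes were. It also gave 8 rises and 5 falls in dN-VEGF hypoxia, where 32.8% of all genes rose and 34.3% fell, and 8 higher and 3 lower genes between the lines in hypoxia, where 21.2% were higher and 21.2% lower. Scaling by total counts alone gave 3 rises and 6 falls in WT hypoxia, 5 rises and 6 falls in dN-VEGF hypoxia, 3 higher and 3 lower genes between the lines in hypoxia and 0 calls in the interaction, Col4a1 included, where 45.6%, 59.8%, 26.8% and 6.13% of all genes were called. Sparc in normoxia was called under neither total counts nor RLE size factors.

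Among the receptors are the laminin-binding integrins. Of the 8 tested genes of that list, 7 encode integrins, and Cd151 encodes a tetraspanin that binds them. In WT hypoxia 3 of the 8 rose and 0 fell, where 18.2% of all tested genes rose and 18.3% fell. In dN-VEGF hypoxia 2 rose and 2 fell, where 26.9% of all rose and 26.4% fell, and 1 of the 2 falls was that of Cd151 (-0.43, adjusted p = 0.0084). The medians of the 8 genes were 0.33 and 0.39. Among the called genes, Itgb4, the partner of alpha 6 in hemidesmosomes, rose most in WT cells (0.98, adjusted p = 0.024). The change of Itga7 there was 0.99 and not called (adjusted p = 0.078). Itga7, the laminin receptor of muscle, rose most in dN-VEGF cells (3.05, adjusted p = 0.00017), from 3.70 ± 1.73 to 30.7 ± 2.17 CPM, and was lower there than in WT cells in normoxia (-1.85, adjusted p = 0.036). Itga3, a receptor for laminins with alpha 3 or alpha 5, fell in dN-VEGF hypoxia (-1.19, adjusted p = 0.0015). It was lower there than in WT hypoxia (-1.23, adjusted p = 0.0051), and its response differed between the lines by -1.38 (adjusted p = 0.048). In normoxia 2 genes of the list were lower in dN-VEGF cells and 0 higher, and in hypoxia likewise 2 and 0, where 2.97% and 9.36% of all genes were lower. With replicate 2 of WT normoxia left out, 5 rose and 2 fell in WT hypoxia, where 27.1% of all genes rose and 26.9% fell. In that fit 5 rose and 2 fell in dN-VEGF hypoxia too, where 32.8% of all genes rose and 34.3% fell. Between the lines it gave 1 higher and 2 lower in normoxia, where 25.7% and 23.2% of all genes were called so, and 1 higher and 4 lower in hypoxia, where 21.2% and 21.2% were. In the interaction it gave 2 more positive and 3 more negative, where 21.4% and 23% were. Under total counts alone 1 rose and 2 fell in WT cells, where 45.6% of all genes were called.

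Dystroglycan and other receptors gave 4 rises and 3 falls among 8 tested genes in WT hypoxia and 4 rises and 1 fall in dN-VEGF hypoxia, with medians of 0.52 and 0.92. Of all tested genes, 18.2% rose and 18.3% fell in WT cells, and 26.9% and 26.4% in dN-VEGF cells. The largest rise in both lines was that of Sgcd, a sarcoglycan of the dystroglycan complex (1.98, adjusted p = 5.9e-07, and 2.08, adjusted p = 1.9e-07). The largest fall was that of Sdc1, a syndecan that binds laminin through heparan sulfate (-1.65, adjusted p = 1.4e-05, and -2.65, adjusted p = 2.9e-07), whose response was the more negative in dN-VEGF cells (interaction, adjusted p = 0.033). In normoxia 2 of these genes were higher in dN-VEGF cells, with Sgcd at 0.59 (adjusted p = 0.020), and in hypoxia 4 were higher and 1 lower, with Sgcd at 0.70 (adjusted p = 0.0023) and Sdc1 at -0.89 (adjusted p = 0.0030), where 1.39% of all genes were higher in normoxia and 10.8% higher and 9.36% lower in hypoxia. Leaving out replicate 2 of WT normoxia gave 4 rises and 4 falls in WT hypoxia and 4 rises and 3 falls in dN-VEGF hypoxia, and 4 higher and 3 lower genes in dN-VEGF normoxia. Between the lines in hypoxia it gave 4 higher and 2 lower, and in the interaction 5 more positive and 1 more negative. Of all genes in that fit, 27.1% rose and 26.9% fell in WT hypoxia, 32.8% and 34.3% in dN-VEGF hypoxia, 25.7% were higher and 23.2% lower in dN-VEGF normoxia, 21.2% and 21.2% in dN-VEGF hypoxia, and 21.4% and 23% differed in the interaction. Under total counts alone 2 were higher and 1 lower in dN-VEGF hypoxia than in WT hypoxia, where 26.8% of all genes were called.

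Dystroglycan binds laminin through a sugar chain built by a set of dedicated enzymes. Of 11 tested enzyme genes, 5 fell in WT hypoxia, and 1 rose and 3 fell in dN-VEGF hypoxia, with medians of -0.08 and -0.03. Of all tested genes, 18.3% fell in WT cells, and 26.9% rose and 26.4% fell in dN-VEGF cells. Pomt1, which adds the first mannose of that chain, fell most in both lines (-0.85, adjusted p = 0.00098, and -1.22, adjusted p = 4.7e-05). The 1 gene that rose in dN-VEGF hypoxia was B4gat1, which adds glucuronic acid to the chain (0.23, adjusted p = 0.032), and under total counts alone this call was lost and its direction turned. In normoxia 0 of the 11 differed between the lines, where 1.39% of all genes were higher and 2.97% lower. In hypoxia Pomt1 was lower in dN-VEGF cells (-0.58, adjusted p = 0.019), where 9.36% of all genes were. Without replicate 2 of WT normoxia 3 rose and 5 fell in WT hypoxia, 4 rose and 4 fell in dN-VEGF hypoxia, and 4 were higher in dN-VEGF normoxia and 4 in dN-VEGF hypoxia. The shares of all genes in that fit were 27.1% and 26.9%, 32.8% and 34.3%, 25.7%, and 21.2%, in the same order. In the interaction 2 were then more negative, where 23% of all genes were. Under total counts alone 7 enzyme genes fell in WT hypoxia and 6 in dN-VEGF hypoxia, where 45.6% and 59.8% of all genes were called in either direction.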

How the data were processed

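Total RNA of 12 samples was made into libraries with a kit that does not mark strand and sequenced as single reads. Per the submitters' notes and the methods, the authors trimmed reads (Trim Galore, cutadapt 1.10), aligned them with TopHat2 2.1.0 and Bowtie2 2.2.6 to the mouse genome GRCm38 and counted them per gene with HTSeq 0.6.1, and the deposited values are raw counts. The strand setting is not given in the sources used here.

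Tests used edgeR 4.0.16 (R 4.3.3): low counts were removed with filterByExpr, libraries were scaled by TMM, and the quasi-likelihood test was run in a single model of the 4 groups, with p-values of the 14724 tested genes adjusted by Benjamini-Hochberg. Samples held 30519052 to 43056690 counts, and intervals and floors cover counting error or the spread of samples only. Exon lengths came from GENCODE annotation of GRCm38, whose starts and ends of the 9 genes are those of the file. Shares of chains were compared by exact permutation tests (scipy 1.17.1). Log2 CPM used a prior count of 2. Alternatives were DESeq2 1.42.0, other scalings and filters, only the 6 samples compared, a fold change of at least 2, each sample left out, both normoxia samples numbered 2 left out, and replicate number as a block. The code was tested on simulated data.

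The members, the gene lists and the tests were chosen with earlier results of these data known. A gene of the list of dystroglycan enzymes is not reported here, and the list is counted without it. The genes named are all members, the 2 genes most like each tested member, and from each list the largest rise and fall among called genes of each comparison. Any other gene was named after its values were seen, as were Cd151 and, as markers, Cdh5, Krt14, Cdh1, Krt8, Pecam1, Tek, Emcn, Epcam and Fap. Same-numbered normoxia samples of the 2 lines deviated together (r = 0.36 to 0.50 for the 3 pairs), and so did replicates 1 and 3 across numbers (0.35 and 0.36), with replicate 2 apart in both lines. These 3 pairs all passed a set minimum r of 0.1, and in the other comparisons not every pair did. As replicates 1 and 3 correlated about as much across numbers, this rule cannot tell pairing by number from replicate 2 standing apart. The main tests used no pairing.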

Additional observations from a re-analysis of the deposited data

Results flagged for a closer look

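Lama4 responded to hypoxia differently in the lines, by 3.16 on the log2 scale (dN-VEGF minus WT response, SE 0.71, adjusted p = 0.039 by edgeR's interaction test). It was picked out because the test of the difference itself passed the threshold. The samples behind it stood at 8.19, 1.39 and 8.11 CPM in WT normoxia, 1.95 to 2.60 CPM in WT hypoxia, 3.22 to 6.07 CPM in dN-VEGF normoxia and 15.0 to 16.4 CPM in dN-VEGF hypoxia. Leaving out replicate 2 of WT normoxia gave 3.62, and each of the other 11 samples, left out in turn, ended the call with a difference of at least 2.86.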

How the results depend on the processing

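The number of the 6 tested members called was 4 for hypoxia in WT cells, 4 for hypoxia in dN-VEGF cells, 0 for dN-VEGF against WT cells in normoxia, 2 for the same in hypoxia and 1 for the interaction. In the order of these comparisons, leaving out each of the 12 samples gave 2 to 6, 3 to 5, 0 to 5, 1 to 3 and 0 to 4. The 5 in normoxia and the 4 for the interaction both came without replicate 2 of WT normoxia, where 48.9% and 44.4% of all genes were called against 4.36% and 3.36% with all samples, and the 2 in WT hypoxia without replicate 2 of WT hypoxia. With both normoxia samples numbered 2 left out, 5 members were called in normoxia, 4 in hypoxia between the lines and 4 for the interaction, where 53.6%, 55.8% and 52.8% of all genes were called. DESeq2 called 2 and no filter 1 in normoxia (4.51% and 1.83% of all genes), and DESeq2 called 5 for hypoxia in dN-VEGF cells (27.2%). No filter also gave 1 in hypoxia between the lines, with Lamb1 lost, where only the 6 samples compared gave 4 (57% of all genes). For hypoxia in WT cells the fit of 6 samples gave 2 (23.8%), with Lama4 and Lamb2 lost. A fold change of at least 2 left 2 in each line and 1 between the lines in hypoxia (15.7%, 27.2% and 6.81% of all genes). The replicate block gave 0 for the interaction, where 3.29% of all genes were called. In the 6 normoxia samples alone (added after the data were seen) it also gave 0 in normoxia. There it called 1 of 13934 genes (0.00718%), so this 0 is no result about the members. Beyond the calls of Lama4 in WT hypoxia and in the interaction, the block turned no call of a member. The causes were not tested.

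Directions turned only for members that were not called. Lamc1 in dN-VEGF hypoxia was 0.0072 with RLE size factors, 0.024 with at least 10 counts in every sample, and -0.078 to 0.014 with a sample left out. Between the lines in hypoxia, total counts alone turned Lamb2 to -0.015 and Lamc1 to -0.15. In normoxia Lamb2 was 0.059 with no filter, 0.040 with the block in the 6 samples and -0.26 to 0.15 with a sample left out, and Lama4 was 0.028 with that block and -0.70 to 0.056 with a sample left out. Shares of beta genes not divided by length moved by -18.0 and -24.3 percentage points for Lamb1 in WT and dN-VEGF hypoxia, against -22.2 and -28.3 per kb. Depth limits Lama1, Lama2 and Lamb3, which gave at most 18 counts in a sample. Of 66 calls among the genes of the 4 pathway lists, total counts alone ended 12 and turned the direction of 1, and RLE size factors ended 1 (scalings of the lists were added after the data were seen, as were their counts without the normoxia samples numbered 2).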
